A study of Mus musculus with 2 samples.

Results

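The cells described here are the papain cDC2s that carry the label of cluster 3 in the authors' deposited mRNA clustering. They were 898 of 6190 papain cells with an mRNA cluster label, which is 14.5% of those cells (95% interval 13.6 to 15.4%), and they came out of 11067 cells of both libraries. MHCII-high CD11c+ B220- cells had been sorted from lymph nodes of B6 mice, and mRNA and 12 surface proteins were read in the same cells by CITEseq, which tags each antibody with a DNA barcode. One library came from mice that received OVA with the protease papain in both rear footpads 1 day earlier, and the other from unimmunized (naive) mice. The methods give popliteal nodes for the papain library and pooled skin-draining nodes for the naive one, whereas the labels name both for each library, so treatment, node site and library cannot be told apart. The cluster labels split the papain cDC2s into 9 clusters and the naive cDC2s into 7, and the clusters of the 2 libraries were numbered separately.

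Conventional type 2 dendritic cells (cDC2s) take up antigen in tissues such as the skin, mature, and move to the draining lymph node by way of the chemokine receptor CCR7, where they present peptides on MHC class II to CD4+ T cells. They also give costimulatory signals and secrete cytokines. CD301b, the lectin encoded by *Mgl2*, marks a dermal cDC2 population known for its part in type 2 helper T cell responses to allergens and proteases such as papain.

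With 1 library per condition and cells that are no replicates, no test was made and no p-value is given. The intervals are exact and cover counting error only. Because the clusters were made from these mRNA values, every mRNA difference between clusters is a description. The antibody values had no part in the mRNA clustering.

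The median depth of cluster 3 was 14232 UMIs per cell, with the middle of the cells between 12431 and 16020 and the deepest cell at 22575. The medians of the other 8 clusters ran from 7249 in cluster 8 to 30021 in cluster 5. A cluster 3 cell had a median of 3224 detected genes, against 2387 to 4966 in the other clusters. Mitochondrial genes took a median of 2.42% of UMIs in cluster 3, where only clusters 1 and 5 were lower among the 8 others. A UMI of the T cell genes *Cd3e* or *Trac* was present in 30 of the 898 cells, or 3.34% (2.27 to 4.73%), against 4.10% (3.58 to 4.67%) of the other labelled cells. Cluster 3 was thus neither the deepest nor the shallowest cluster. The 2 libraries share 2 cell barcodes.

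The antibody that reads CD301b carries the barcode shown here, because the CD301b classes rest on its counts.
CD301b: cttgccttgcgattt

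All 3 CD301b classes were present in cluster 3. The authors' classes put 363 cells (40.4%, 37.2 to 43.7%) in the CD301b-high, 367 (40.9%, 37.6 to 44.2%) in the CD301b-intermediate and 168 (18.7%, 16.2 to 21.4%) in the CD301b-low class. In the other labelled cells the shares were 47.8%, 27.6% and 24.6%. The share of intermediate cells in cluster 3 was above that of each of the other 8 clusters, the nearest being cluster 6 with 34.7%. Its share of CD301b-high cells lay in the middle of the clusters, 4 being higher, up to 67.2% in cluster 2, and 4 lower, down to 7.45% in cluster 4.

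The antibody value, on a natural log scale, gave the same place in the middle. The median CD301b value of cluster 3 was 1.43, with quartiles of 0.88 and 2.04, and that of the other cells 1.57, with quartiles of 0.75 and 2.26. The quartile ranges overlapped for the most part. The cluster medians ran from 0.31 in cluster 4 to 2.08 in cluster 2. Of the markers that define cDC2s, CD172a had a median of 1.86 in cluster 3 and 1.92 in the other cells, and CD11c 2.10 and 2.19. XCR1, the marker of cDC1s, was near 0 in both (0.08). CD326, an adhesion molecule that is high on Langerhans cells, had a median of 0.34 in cluster 3, the lowest of the 9 clusters, and 0.40 in the other cells. The antibodies to CD11b and CD24 are listed with the same barcode and are therefore not read here as separate markers. CD172a, XCR1 and CD326 had served to call the cDC2s before the mRNA clustering, so their levels do not check that label.

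**Figure D1:**
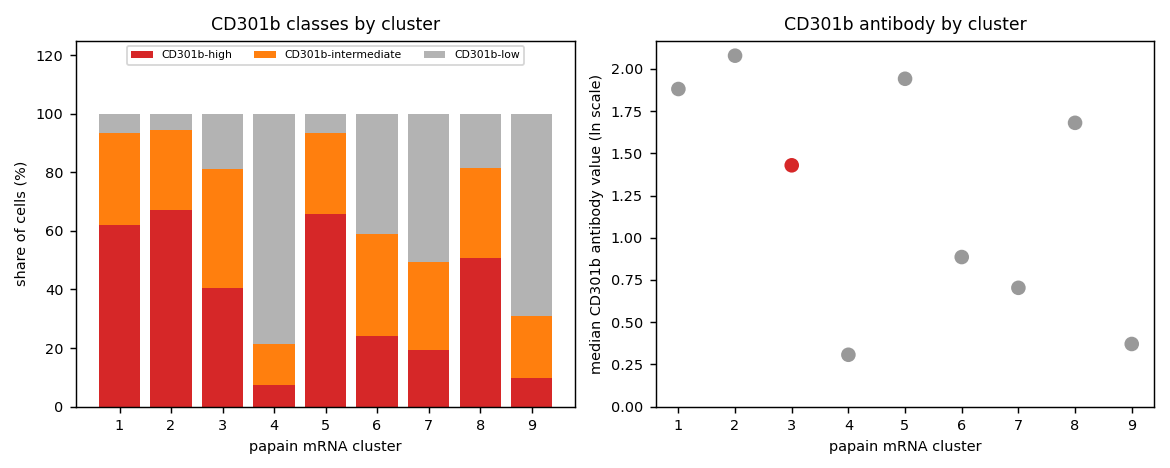
The left panel stacks the share of cells in each CD301b class (%) for the 9 papain mRNA clusters, and the right panel gives each cluster's median CD301b antibody value (ln scale), with cluster 3 in red. Cluster 3 has 40.4% CD301b-high and 40.9% CD301b-intermediate cells and a median of 1.43, with 4 clusters above it and 4 below.

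Of 12 genes of cDC2 identity, 6 reached 50 CPM, 5 of them below 0 in log2 ratio to the other labelled cells, from -0.62 for *Sirpa*, which encodes CD172a, to 0.16 for *Cd1d1*. The 12 summed to 563 CPM (550 to 576) in cluster 3 and 611 CPM in the other cells. Transcripts of *Zbtb46*, the transcription factor of conventional DCs, stood at 78 CPM (UMIs of a gene per 1e6 UMIs of the group) in cluster 3 and in the other cells, and *Irf4*, a transcription factor of cDC2s, at 73 CPM in both. *Mgl2* mRNA itself was nearly absent, with 3 UMIs in the whole cluster, or 0.23 CPM (0.05 to 0.68), against 1.02 CPM in the other papain and 44.9 CPM in the labelled naive cells. Markers of other lymph node cells were low. The 9 B cell genes summed to 10.9 CPM, the 13 listed monocyte and macrophage genes to 27.9 CPM, and neither list had a member at 50 CPM. Among the 10 T cell genes only *Il7r*, which DCs also express, reached 50 CPM, and among the 8 NK and cytotoxic genes only *Klrd1*. Of the cDC1 genes only *Batf3* and *Irf8*, of the Langerhans cell genes only *Mfge8* and *Ly75*, and of the plasmacytoid DC genes only *Bst2* and *Tcf4* did so, while the langerin gene *Cd207* and the cDC1 genes *Xcr1* and *Clec9a* were near 0. Neutrophil and stromal lists had 2 genes each in the files and none at 50 CPM.

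Cluster 3 differed little from the rest of the papain cDC2s. Of 2645 genes with at least 50 CPM on the higher side, 2 (0.0756%) were at least 2-fold higher in cluster 3 and 9 (0.34%) at least 2-fold lower, on a scale of log2(CPM + 1). The 2 were *Il12b* and *Tnfsf9*. By the same measure the other clusters had 0 to 144 genes higher and 0 to 249 lower than the cells outside them, and only cluster 5, with 0 of either, had fewer than cluster 3. The median log2 ratio over all 2645 genes was -0.06.

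*Il12b*, which encodes the p40 subunit shared by interleukin 12 and interleukin 23, had the highest ratio. Its level was 83.9 CPM (79.0 to 89.1) in cluster 3 and 37.0 CPM in the other labelled cells, a log2 ratio of 1.16 (1.06 to 1.26). In clusters 4 and 7 it reached 67.5 and 66.7 CPM, and in cluster 6 it was at 0.20 CPM. Cluster 3 was the highest of the 9 clusters. The transcript was unevenly spread, since a UMI was found in 20.2% of cluster 3 cells and the 90 cells with most UMIs held 88.6% of them. The share was 11.8% in the other labelled cells and 1.2% in 241 unclassed papain droplets with a T cell UMI, which should lack the gene, at median depths of 14232, 15012 and 6980 UMIs. After thinning each cell to 8856 UMIs, the shares in cluster 3 and the other cells were 17.1% and 9.2%, over 891 and 4680 cells.

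*Tnfsf9*, which encodes 4-1BBL, a costimulatory ligand of the TNF family, was the other gene past 2-fold. It stood at 301 CPM (291 to 310) in cluster 3 and 147 CPM in the other cells, a log2 ratio of 1.03 (0.98 to 1.08). Of the other clusters, cluster 1 came nearest with 182 CPM and cluster 6 was lowest, so that none reached the level of cluster 3. The transcript was widespread, with a UMI in 69.7% of cluster 3 cells, 46.5% of the others and 3.3% of the droplets with T cell UMIs. Thinned shares were 63.6% and 40.1%.

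The 13 genes next in order were within 2-fold. *Socs3*, a feedback inhibitor of cytokine receptor signalling, was at 94.1 CPM in cluster 3 and 49.9 CPM in the other cells. *Adm*, which encodes the vasodilator peptide adrenomedullin, was at 89.0 and 47.4 CPM. *Mir155hg*, the host transcript of miR-155, was at 237 and 136 CPM. Each of these 3 was highest in cluster 3 of all 9 clusters, as were *Upb1* (60.0 and 30.2 CPM), the linker histone gene *Hist1h1c* (84.9 and 47.7 CPM), *Gm37975* (81.7 and 53.2 CPM) and the intermediate filament gene *Vim* (5773 and 3758 CPM). *Egr1*, an immediate early transcription factor, was at 257 CPM against 145 CPM, but reached 266 CPM in cluster 8. *Ccl5*, a chemokine that attracts T cells, was at 11527 CPM against 7075 CPM, below the 14528 CPM of cluster 9. *Fabp4*, a fatty acid binding protein, was at 198 and 120 CPM, about the level of cluster 1 at 199 CPM. *Cxcl1*, a chemokine for neutrophils, was at 622 and 391 CPM, and cluster 1 came close with 595 CPM. *Zfas1*, a noncoding RNA, was at 351 and 229 CPM, below the 372 CPM of cluster 9.

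**Figure D2:**
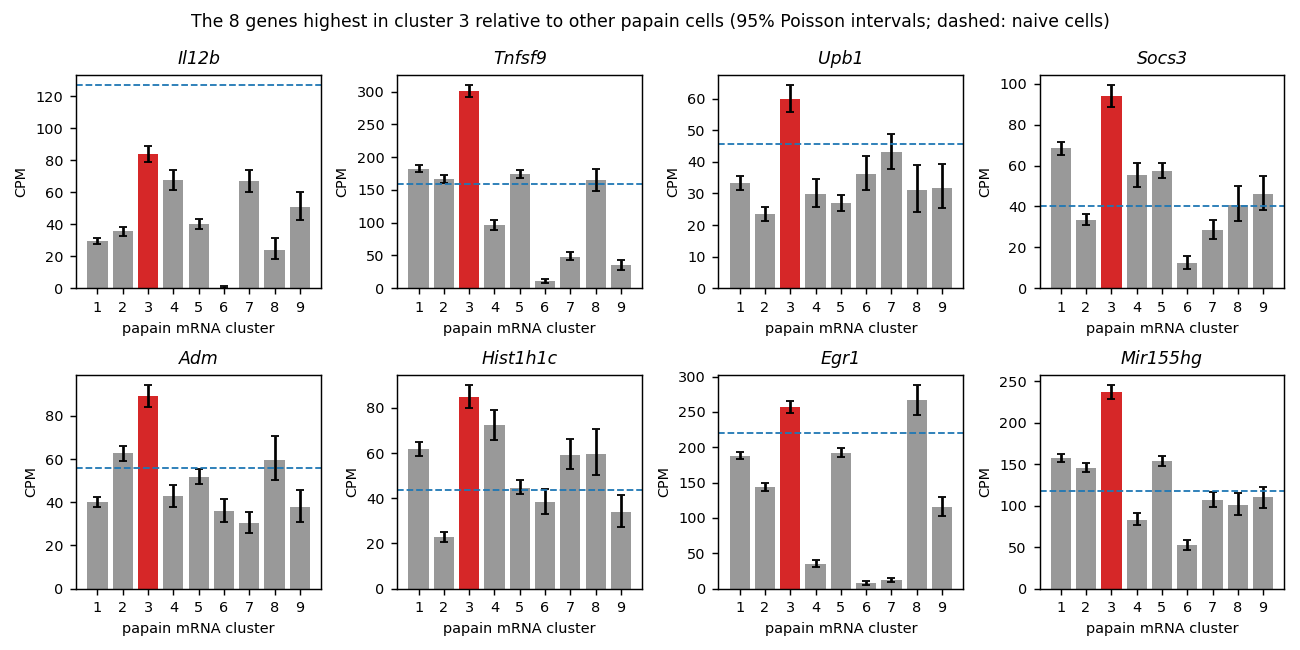
Bars give the CPM of the 8 genes with the highest ratio in each of the 9 papain mRNA clusters (cluster 3 in red) with exact 95% Poisson intervals, and the dashed line is the CPM of all labelled naive cells. Cluster 3 has the highest bar for each gene but *Egr1*, where cluster 8 stands at 266 CPM.

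The 250 bases before the start of 3 of the highest genes follow, as RefSeq has them on GRCm38.p6, written 5′ to 3′ on the strand of the gene. They are shown because *Cxcl1* and *Socs3* hold matches to the kappaB letters, GGGA followed by any 4 bases and CC, given in capitals, and *Il12b* holds none. The positions are chr11:44399813-44400062 (plus strand) for *Il12b*, chr5:90890995-90891244 (plus strand) for *Cxcl1* and chr11:117969367-117969616 (minus strand) for *Socs3*.
Il12b: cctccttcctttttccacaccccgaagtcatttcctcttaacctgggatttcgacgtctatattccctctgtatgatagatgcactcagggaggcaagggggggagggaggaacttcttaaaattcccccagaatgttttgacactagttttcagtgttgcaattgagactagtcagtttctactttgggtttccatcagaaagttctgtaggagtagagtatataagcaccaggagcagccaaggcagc
Cxcl1: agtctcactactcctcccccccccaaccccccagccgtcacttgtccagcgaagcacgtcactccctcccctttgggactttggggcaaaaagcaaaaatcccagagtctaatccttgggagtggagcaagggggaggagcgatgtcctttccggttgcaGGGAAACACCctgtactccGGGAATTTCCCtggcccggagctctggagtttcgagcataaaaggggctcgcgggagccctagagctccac
Socs3: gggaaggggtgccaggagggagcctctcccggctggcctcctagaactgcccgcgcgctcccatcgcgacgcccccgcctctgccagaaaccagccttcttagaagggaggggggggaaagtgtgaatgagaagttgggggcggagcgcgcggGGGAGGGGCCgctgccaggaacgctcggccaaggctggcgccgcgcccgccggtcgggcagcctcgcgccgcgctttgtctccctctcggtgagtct
On either strand, *Cxcl1* has 3 matches, a pair of which overlap, and *Socs3* has 1. Of the 15 genes with the highest ratio, 8 matched a promoter by symbol and 4 of those held the letters, as did 2 of 9 matched among the 15 lowest. Of all 27025 promoters, 17.3% held them, and of 1862 compared genes 22.1%. A match, or the lack of one, describes these letters alone.

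The gene with the lowest ratio was *Mucl1*, a small mucin-like gene, at 4.59 CPM in cluster 3 and 117 CPM in the other cells, a log2 ratio of -4.40 (-4.71 to -4.09). Clusters 2 and 7 were lower still, at 1.19 and 1.28 CPM, while cluster 1 held 279 CPM. Most cells outside cluster 3 also held no *Mucl1* UMI. One was found in 8.9% of the other cells and 2.0% of cluster 3 cells, and the thinned shares were 7.5% and 1.3%. *Khdc1a* was at 16.9 and 91.6 CPM, with lower levels in clusters 1 and 9. *Dnase1l3*, a secreted DNase of DCs and macrophages, was at 64.2 and 209 CPM, again with 2 clusters lower. Each of the 3 was thus low in cluster 3 and in some other clusters.

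The remaining 6 genes past 2-fold were *Gngt2*, *H2-Eb2*, *H2-Ab1*, *Spic*, *Cd81* and *Ccnd1*. *Gngt2*, a G protein subunit gene, was at 53.2 and 137 CPM, *Spic*, a transcription factor of the Ets family, at 37.5 and 82.2 CPM, and *Cd81*, a tetraspanin, at 41.6 and 90.1 CPM. *Ccnd1*, which encodes cyclin D1, was at 49.7 and 103 CPM. *Spic*, *Cd81* and *Ccnd1* fell within 2-fold with equal cluster weights, at -0.91, -0.87 and -0.99. Only *Kdm2b*, a histone demethylase gene at 28.6 and 54.3 CPM, was lowest in cluster 3 of all 9 clusters among the 15 lowest genes. Of 3457 genes with at least 50 CPM in any papain cluster, cluster 3 was highest of the 9 for 98 (2.83%) and lowest for 230 (6.65%).

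**Figure D3:**
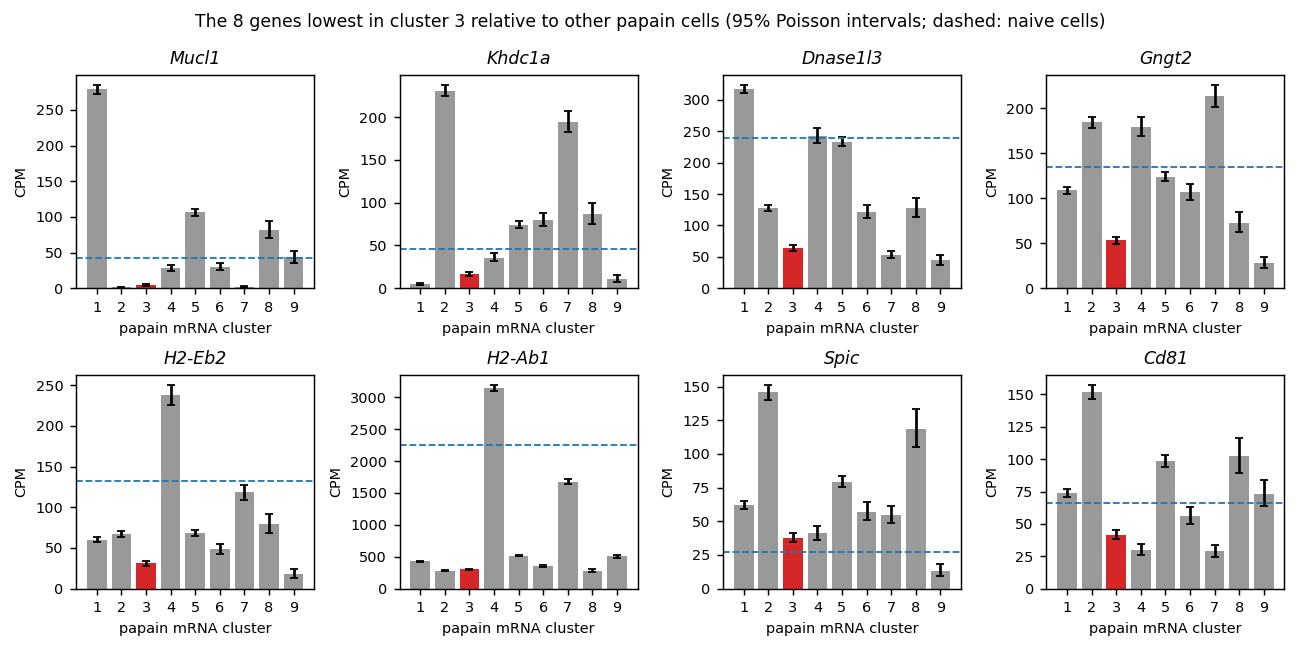
Bars give the CPM of the 8 genes with the lowest ratio in each of the 9 papain mRNA clusters (cluster 3 in red) with exact 95% Poisson intervals, and the dashed line is the CPM of all labelled naive cells. *Mucl1* stands at 4.59 CPM in cluster 3 and 279 CPM in cluster 1, and *H2-Ab1* at 299 CPM in cluster 3 and 3149 CPM in cluster 4.

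Genes of MHC class II presentation were lower in cluster 3 than in the other labelled cells as a whole. All 9 MHC class II presentation genes with at least 50 CPM had ratios below 0, with a median of -0.30, where 59.7% of all compared genes lay below 0. *H2-Ab1*, the beta chain of I-A, was at 299 CPM (290 to 309) against 686 CPM, a log2 ratio of -1.19 (-1.24 to -1.15). *H2-Eb2*, a gene of the I-E beta family whose reads may be split with *H2-Eb1*, was at 31.0 against 78.7 CPM. *Cd74*, the invariant chain, was at 3610 against 5060 CPM, and *H2-Aa*, the alpha chain of I-A, at 1347 against 1639 CPM. *Ciita*, the transactivator of these genes, was under the minimum, at 2.57 CPM (1.77 to 3.61) against 13.2 CPM. Cluster 4 had the highest levels, with 3149 CPM of *H2-Ab1* and 59.2 CPM of *Ciita*, and clusters 2 and 8 were below cluster 3 for *H2-Ab1*. At the surface, the MHC II antibody value had a median of 4.98 in cluster 3 and 5.08 in the other cells, with quartiles of 4.71 and 5.22 against 4.76 and 5.37. All cells had been sorted as MHCII-high, which limits the range of this value. MHC class I presentation had 5 of 13 genes above 0 and 8 below, with a median of -0.08, from *Nlrc5*, the class I transactivator, at -0.78 to the proteasome gene *Psmb10* at 0.15.

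Cytokine and chemokine genes leaned the other way. Of 5 cytokine genes at 50 CPM, 4 were above 0, with a median of 0.51, where 40.3% of all compared genes lay above 0. Beside *Il12b* these were *Csf1*, the macrophage growth factor (101 and 66.9 CPM), *Ebi3*, a subunit of interleukin 27 (106 and 73.9 CPM), and *Il15* (174 and 150 CPM). *Il1b* was at 365 and 394 CPM. *Tnf* was under the minimum, at 44.1 and 31.3 CPM. Of 6 chemokine genes, 5 were above 0, with a median of 0.24, *Ccl5* being the highest and *Ccl9* the lowest at -0.40. *Ccl17* and *Ccl22*, ligands of CCR4 on type 2 helper T cells, were at 899 and 2151 CPM in cluster 3 and at 727 and 1911 CPM in the other cells.

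Costimulatory genes did not move together. Of 8 genes, 4 were above 0 and 4 below, with a median of -0.02 that turned to 0.01 with equal cluster weights and 0.04 with median scaling, and *Tnfsf9* was the single one past 2-fold. *Cd40* was at 620 CPM (607 to 634) against 741 CPM, *Cd86* at 220 against 259 CPM, *Cd80* at 71.0 against 65.4 CPM, and *Icosl* was the lowest at -0.42. *Cd70*, another ligand of the TNF family, was under the minimum at 27.6 and 13.2 CPM, and was highest in cluster 3 of all clusters. *Il2* was near the limit of detection, at 4.59 CPM from 59 UMIs against 4.17 CPM, a log2 ratio of 0.11 (-0.22 to 0.45), so that no difference was detectable at this depth. A UMI of *Il2* was found in 6.5% of cluster 3 cells, 6.4% of the other cells and 2.9% of the droplets with T cell UMIs. The droplets were shallower, at a median of 6980 UMIs. Thinned to 8856 UMIs per cell, the shares in cluster 3 and the other cells were 4.0% and 3.6%. *Il2ra*, the alpha chain of the interleukin 2 receptor, was at 161 CPM (155 to 169) against 123 CPM, and cluster 4 was higher at 168 CPM.

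Of the 22 maturation and migration genes, 14 were above 0, where 40.3% of all compared genes were, and the median was 0.12. *Ccr7* was at 3525 and 3172 CPM, *Icam1*, an adhesion molecule for T cells, at 376 and 249 CPM, and *Cd63* was the lowest at -0.35. The 17 genes of NF-kB subunits and feedback had a median of -0.02, with 6 above 0. Those highest were *Nfkbiz* (543 and 381 CPM) and the inhibitor genes *Nfkbia* (4418 and 3222 CPM) and *Nfkbib* (184 and 150 CPM). The last 2 were highest in cluster 3 of all clusters. The subunit genes *Rela*, *Nfkb1*, *Nfkb2*, *Rel* and *Relb* lay between -0.22 and -0.01. Of 20 immediate early genes 13 were above 0, with a median of 0.13, from *Nr4a3* at -0.40 to *Egr1* at 0.82. The 13 genes of TSLP and IL-4 receptor signalling had a median of -0.05, with *Socs3* at 0.90 and *Jak2* at -0.39.

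Several housekeeping lists lay on one side, where 40.3% of all compared genes lay above 0 and 59.7% below. Of 25 cytosolic ribosomal protein genes 24 were above 0, with a median of 0.22, although genes with near-identical copies are uncertain in this counting. All 9 mitochondrially encoded genes at 50 CPM were below 0 (median -0.22), as were all 8 genes of cholesterol synthesis and efflux (median -0.27), with *Hmgcs1* lowest at -0.55. Of 10 heat shock chaperone genes 9 were below 0, with a median of -0.23 and *Hspa1b* lowest at -0.92. The unfolded protein response had 8 of 10 genes below 0 and the actin and motility list 14 of 19, where *Flna* was lowest at -0.87 and *Vim* highest at 0.62. Interferon-stimulated genes were split evenly, 6 above and 6 below 0. Among 11 apoptosis and survival genes, *Bcl2l1*, an inhibitor of cell death, was highest at 0.52 and *Pmaip1*, a promoter of it, lowest at -0.60. Among 9 oxidative stress and metal response genes, the metallothionein *Mt1* was highest at 0.46 and the peroxiredoxin *Prdx1* lowest at -0.47, and among 7 glycolysis and hypoxia genes *Adm* was highest and *Pkm* lowest at -0.53. Of the noncoding RNAs *Gas5* was highest at 0.44 and *Neat1* lowest at -0.42. Few genes of phagocytosis (1) and of retinoic acid and TGF-beta (2) reached 50 CPM. In the cell cycle list *Ccnd1* was the lowest and *Cdkn1a*, an inhibitor of cyclin-dependent kinases, the highest of 7 genes, at 1235 and 922 CPM.

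**Figure D4:**
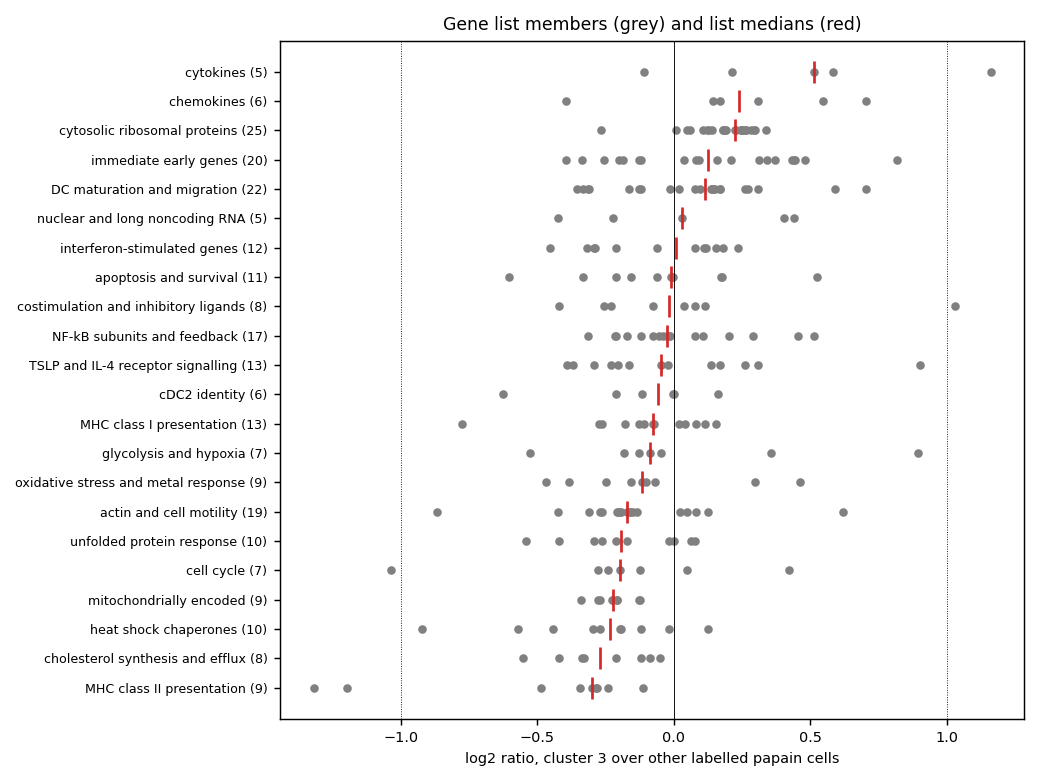
Grey points are the log2 ratios of cluster 3 over the other labelled papain cells for members with at least 50 CPM, for lists with at least 5 such genes (number of such genes in parentheses), red ticks are list medians and dotted lines mark 2-fold. Medians of these lists run from -0.30 for MHC class II presentation to 0.51 for cytokines, and 5 list genes lie past 2-fold.

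The nearest clusters were clusters 5 and 1. Across the 3457 genes, which are not independent replicates, the log2(CPM + 1) profile of cluster 3 had a Pearson r of 0.984 with cluster 5 and 0.979 with cluster 1, and the other papain clusters followed from 0.958 (cluster 2) to 0.887 (cluster 8). The nearest naive cluster was cluster 1, with 0.941. Against cluster 5, 2 of 2693 genes (0.0743%) were at least 2-fold higher in cluster 3 and 10 (0.371%) lower. The 2 were *Upb1* and *Il12b*, and the lowest were *Mucl1*, *Khdc1a* and *Dnase1l3*. Against cluster 1, 8 of 2670 genes (0.3%) were higher and 18 (0.674%) lower. The 5 highest were *Il12b* (83.9 and 29.5 CPM), the prion protein gene *Prnp* (139 and 53.8 CPM), *Grasp* (83.6 and 32.9 CPM), *Stat4*, which signals downstream of the interleukin 12 receptor (95.2 and 39.6 CPM), and *2610528A11Rik* (65.7 and 28.1 CPM). The 5 lowest were *Mucl1*, *Dnase1l3*, *Myof*, the superoxide dismutase gene *Sod3* (54.5 and 151 CPM) and *Htra1*. *Il12b* was thus among the genes past 2-fold in both comparisons, and *Mucl1* was the lowest in both.

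Inside cluster 3, the CD301b-high and CD301b-low cells were alike for most genes. Of 2544 genes, 8 (0.314%) were at least 2-fold higher in the 363 high cells and 3 (0.118%) at least 2-fold higher in the 168 low cells. *Mucl1* was not compared, having under 5 CPM in both classes. The 5 highest were *Ptgs2*, which encodes the prostaglandin synthase COX-2 (115 and 38.2 CPM), *Fxyd2* (503 and 202 CPM), the transcription factor gene *Ehf* (103 and 48.6 CPM), *Mki67*, a gene of cycling cells (116 and 55.1 CPM), and *Csf1* (128 and 62.0 CPM). The 3 were *Crispld2* (20.4 and 56.4 CPM), *Grasp* (56.8 and 128 CPM) and *Cd1d1*, which presents lipids to NKT cells (65.1 and 133 CPM). *Cdk6* (46.6 and 93.7 CPM) and *Tcf7* (35.3 and 68.5 CPM) followed within 2-fold. *Il12b* was at 69.8 CPM in the high and 69.4 CPM in the low cells, and *Tnfsf9* at 326 and 279 CPM. *Cd40* was at 710 and 488 CPM. In the other labelled cells, 36 of 2737 genes were at least 2-fold higher in the CD301b-high cells and 30 in the CD301b-low cells. The 5 highest genes and the 3 lowest kept their direction there. Most of their log2 ratios were larger in size than in cluster 3, as for *Csf1* (1.87 against 1.03) and *Grasp* (-2.14 against -1.16). They were smaller for *Ptgs2* (0.79 against 1.56) and *Fxyd2* (1.08 against 1.31). The other labelled cells mix clusters of unlike class make-up, clusters 1 and 2 giving 885 and 869 of the 2530 CD301b-high cells. Cluster 4 gave 527 of the 1302 CD301b-low cells. No class contrast was made inside any other single cluster, so whether these differences are particular to cluster 3 was not tested.

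The leading genes kept their direction in each CD301b class. Of the 15 highest genes all 15 were above, and of the 15 lowest all 15 below, the other labelled cells of the same class in all 3 classes, a stability that the choice of genes in part fixes. *Il12b* was at 105 CPM in the intermediate cells of cluster 3 and 37.7 CPM in those of the other clusters, a log2 ratio of 1.45, against 0.96 in the high and 0.76 in the low class. These *Il12b* values rest on few cells, since 90 of 898 cluster 3 cells held 88.6% of its UMIs, and no class difference was tested. *Tnfsf9* had its largest ratio in the low class, at 1.90 (279 and 74.0 CPM), and *H2-Ab1* its lowest there, at -1.92 (443 and 1673 CPM), against -0.61 in the high class. 2 other class II chains turned direction between classes. *H2-Aa* was higher in cluster 3 among the CD301b-high cells (1342 and 1189 CPM, log2 ratio 0.17) and lower among the low cells (-0.83), and *H2-Eb1* likewise (1140 and 1002 CPM, 0.19, and -0.91). *Cd40* was lower in cluster 3 in the high (-0.27) and intermediate (-0.31) classes and higher in the low class (488 and 421 CPM, 0.21). The comparison cells differed in make-up between classes. Cluster 4 gave 527 of the 1302 other CD301b-low cells but 50 of the 2530 other CD301b-high cells. From the high to the low class, *H2-Ab1* went from 408 to 1673 CPM in the other cells and from 268 to 443 CPM inside cluster 3. Whether the ratios shift with this mix was not tested.

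The labelled naive cells were lower than cluster 3 for 14 of the 15 highest genes, which had been chosen for being high in cluster 3, against 57.5% of all compared genes, and lower than the other papain cells for 9 of the 15. For 7 of the 15 at least 1 naive cluster was above cluster 3, such as *Ccl5* with 13556 CPM in naive cluster 4 and *Egr1* with 511 CPM in naive cluster 5. The exception among the 15 was *Il12b*, which was at 127 CPM in the labelled naive cells and at 214 CPM in naive cluster 2, above the 83.9 CPM of cluster 3. *Tnfsf9* was at 160 CPM and *Cxcl1* at 215 CPM in the naive cells. Of the 15 lowest genes, chosen for being low in cluster 3, 14 were higher in the naive cells, against 42.5% of all compared genes. *Spic* was the exception with 27.4 CPM against 37.5 CPM in cluster 3. The other papain cells were above the naive cells for 10 of these 15, as for *Mucl1* at 117 and 43.1 CPM. For *H2-Ab1* the naive cells, with 2259 CPM, were above the other papain cells as well.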

How the data were processed

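CITEseq data were used from 1 naive and 1 papain library. Per the labels, reads were processed with Cell Ranger 3.0.1 and Partek on mm10. The authors deposited expression as log2 of CPM plus 1 and antibody values on a natural log (ln) scale, with gene numbers and antibody totals as counts. UMIs were recovered from the log2 values by dividing by the value of 1 UMI (100% whole within 0.02 UMIs, up to 50 UMIs). Depth was 2682 to 57150 UMIs per papain cell and 3637 to 57378 per naive cell, over 18049 genes. Cells were grouped by the authors' labels, which were the same in the expression and antibody data. UMIs were summed per cluster, and ratios were taken on log2(CPM + 1) where either side reached 50 CPM. Intervals (95%) are Clopper-Pearson for shares, Poisson for CPM and conditional binomial for ratios, and cover counting error only. The ratio was tested on simulated Poisson counts whose planted changes were larger than 2-fold. Ratios near 2-fold and UMIs held by few cells were not simulated. No doublet caller was run.

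Genes were named by rank, the 15 highest and 15 lowest ratios, 5 each way against both nearest clusters and within CD301b classes, list extremes, and *Il2*, *Il2ra*, *Cd40*, *Mgl2*, *Ccr7*, *Cd80* and *Cd86*. One gene that the rule names is not reported here. Members and lists were chosen with earlier results of these data known. Alternatives changed the pseudocount, minimum, fold, scaling, weights and cells. No ratio was taken on thinned counts, and the alternative planned as thinning averaged each cell's CPM over cells with at least 8856 UMIs. Python 3.11.15, numpy 2.4.6, scipy 1.17.1 and pandas 2.3.3 were used.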

Additional observations from a re-analysis of the deposited data

How the results depend on the processing

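No paired analysis was possible because each condition has 1 library and the labels give no replicate numbers. The number of genes at least 2-fold higher in cluster 3 was 2, and it was 0 with a pseudocount of 10 CPM, 4 with a minimum of 10 CPM, 1 with a minimum of 200 CPM, 6 with the other clusters weighted equally and 18 at 1.5-fold. The number at least 2-fold lower was 9, and it was 42 with a minimum of 10 CPM, 2 with a minimum of 200 CPM and 39 at 1.5-fold. Of the 9, 6 stayed past 2-fold with a pseudocount of 10 CPM and 6 with equal cluster weights, without *Spic*, *Cd81* and *Ccnd1* in either case. *Il12b* and *Tnfsf9* were both past 2-fold under every alternative except the pseudocount of 10 CPM, which left neither, and the minimum of 200 CPM, which left *Tnfsf9*. Leaving out cluster 5, an alternative chosen after seeing the data because 301 of the 310 deepest labelled cells belong to it, gave 2 and 10 genes. All 30 named genes of the main comparison kept their direction under the 6 alternatives run for them, which their choice as extreme ratios in part fixes. Over these alternatives 57 ratios left their counting interval, 19 of them with equal cluster weights and 15 with a pseudocount of 10 CPM. The CD301b-high share was 26.5% in cluster 3 and 34.5% in the other cells when the upper tertile of the antibody value took the place of the authors' classes. Rescaling to a median ratio of 1 shifts every log2 ratio by 0.06 and raised the number of lists with a median above 0 from 12 to 17. The lists that turned under it or under equal cluster weights had medians within 0.1 of 0, and those of MHC class II and cytokine genes kept their direction, at -0.55 and 0.74 with equal weights.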
